A study of Mus musculus with 12 samples.

Results

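Cholesterol leaves a cell through membrane pumps, is freed from lysosomes by a pair of sterol-binding proteins, and is sensed as oxysterols by the liver X receptors (LXRs). The 7 genes described here, picked by symbol from the 50600 entries of the deposited table, cover these steps in cultured neural stem cells (NSCs). They are the exporters Abca1 and Abcg1, the lipid carrier Apoe, the lysosomal sterol proteins Npc1 and Npc2, and the receptors Nr1h2 (LXR beta) and Nr1h3 (LXR alpha). All 7 were in the table, and 6 reached the mean of 10 normalized counts over all libraries that was asked of a gene before it was tested. Nr1h3 did not, and Abcg1 (mean 11.1) did so only through the groups given the inhibitor.

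NSCs had been isolated from the dentate gyrus (DG) of wild type C57Bl6J mice aged 6 weeks, with animals pooled to start a line, so that no library stands for a single animal. Which of the study's lines gave these wells is not given in the sources used here. In all groups the cells grew as a monolayer in medium with B27, EGF and FGF2. At passage 4, cells were plated at 75000 per well of a 12-well plate and given either vehicle or 1 µM TFB-TBOA, which blocks the glutamate transporters of the EAAT family, for 15 min. They then received either vehicle or 100 µM glutamate for 48 h before RNA was taken. The 4 groups, with the inhibitor named first, were Veh-Veh and Veh-Glut without it and TFBTBOA-Veh and TFBTBOA-Glut with it, each of 3 wells sequenced as bulk RNA-seq. Wells of a culture may be technical replicates, so every p-value here refers to variation among wells.

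In cells with sterol to spare, oxysterols bind an LXR, which pairs with a retinoid X receptor (RXR) on DNA and switches on genes of sterol export. Abca1 hands cholesterol and phospholipid to lipid-poor apolipoproteins such as ApoE, and Abcg1 loads more cholesterol onto the particles so formed. Npc2 picks up cholesterol in the lysosome lumen and passes it to Npc1 in the lysosome membrane, from where it reaches other membranes. In the brain, astrocytes supply most ApoE and LXRs govern both its release and the export of sterol.

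The normalized counts of a library summed to 14900486 to 15411418, and in 10 libraries whole reads could be recovered, with totals of 13064545 to 18372691. Within a group, libraries had an r across genes of 0.970 to 0.975. Markers of the labelled cell type were present, and all 10 NSC markers passed the filter. They summed to 119270 to 124108 normalized counts in Veh-Veh and 111776 to 116048 in Veh-Glut. With the inhibitor the sums were 118601 to 123602 in TFBTBOA-Veh and 120149 to 126077 in TFBTBOA-Glut. Every Veh-Glut library thus lay below all libraries of the other groups. The sums rest mainly on Slc1a3, Nes, Fabp7 and Vim, with means over all libraries of 30991, 27276.5, 25201 and 23136. For glutamate without the inhibitor 2 of the 10 markers were higher and 8 lower. None had an adjusted p under 0.05 from limma, against 0.161% of all genes. The part of the lower sums in the values of the members was not tested. Microglia and macrophages, which also carry Apoe, Abca1 and Abcg1, were hardly represented. Their 9 markers used summed to 13.7 to 74.4, with 7 of the 9 under a mean of 10, and Cx3cr1 and Trem2 at 0 in every library. Astrocyte markers summed to 12216 to 12911 in Veh-Veh, 12744 to 13329 in Veh-Glut, 12619 to 13419 in TFBTBOA-Veh and 12381 to 12826 in TFBTBOA-Glut, ranges that overlap. In bulk RNA, fewer cells of a type and less RNA per cell cannot be told apart.

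Per kilobase of exon, Npc2 was the most abundant member and Abcg1 the least. Over the 12 libraries the mean level, in normalized counts per kb of the union of exons, was 423 for Npc2 (379 to 482), 262 for Nr1h2 (209 to 304) and 253 for Apoe (203 to 306). Npc1 followed at 93.0 (82.7 to 114) and Abca1 at 36.5 (28.6 to 49.3). Nr1h3 at 3.57 (0 to 8.11) and Abcg1 at 1.52 (0 to 3.74) came last. The neighbours whose ranges overlapped were Nr1h2 with Apoe, and Nr1h3 with Abcg1. Npc2, Npc1 and Abca1 overlapped none of their neighbours. Among the members, message was abundant for lysosomal release and for the carrier, moderate for the exporter Abca1 and very low for the exporter Abcg1. Other exporters, such as Abcg4 at a mean of 203 normalized counts over the libraries, were not part of this comparison. The order was the same when the longest transcript was taken as the length.

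**Figure D1:**
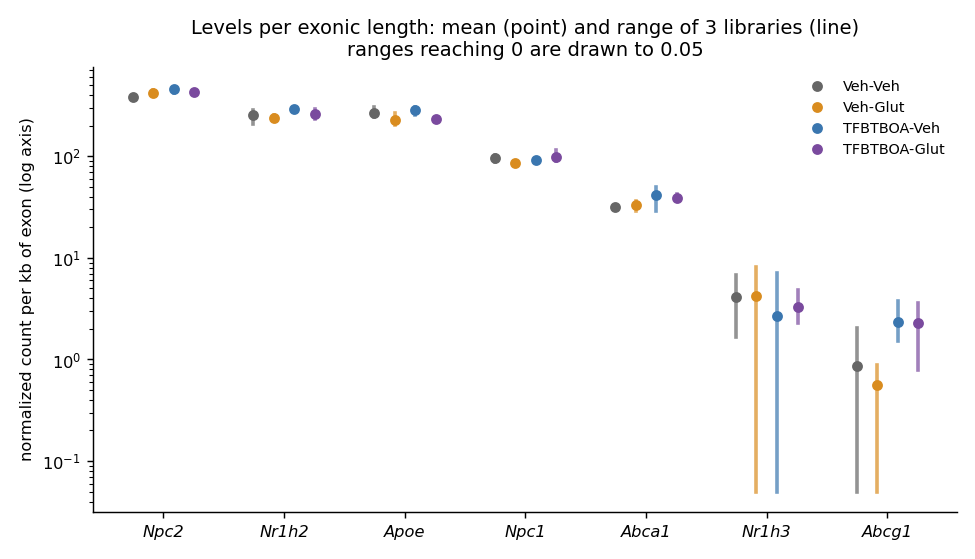
Normalized counts per kb of exon on a log axis for each member, ordered from the highest to the lowest mean. Points are means of 3 libraries and lines their lowest and highest values, coloured by group. Npc2 (423 over all 12 libraries) lies highest, Nr1h2 and Apoe overlap, and the lines of Nr1h3 and Abcg1 reach down to 0.

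Of the receptors, LXR beta made up nearly all of the message. Nr1h2 (chr7:44549616-44553951, minus strand, GRCm38) was at 912, 701 and 954 normalized counts in Veh-Veh (856 ± 136, SD, n = 3), 859, 789 and 762 in Veh-Glut (803 ± 50.4), 1021, 920 and 989 in TFBTBOA-Veh (977 ± 51.4), and 983, 786 and 878 in TFBTBOA-Glut (882 ± 98.8). The lowest library was Veh-Veh replicate 2 and the groups overlapped in each pair compared. Nr1h3 (chr2:91184061-91202834, minus strand) was at 9.58, 16.97 and 4.21 in Veh-Veh, 0, 11.6 and 20.4 in Veh-Glut, 0, 17.97 and 2.01 in TFBTBOA-Veh, and 12.3, 6.88 and 5.76 in TFBTBOA-Glut. Its replicates differed more than its groups did. A count of 0 allows up to 2.95 normalized counts in Veh-Glut replicate 1 and 3.28 in TFBTBOA-Veh replicate 1, which is 3 reads. Per kb of exon, Nr1h2 was 96.6% to 100% of the pair in each library.

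Neither receptor was called for any treatment. Glutamate gave Nr1h2 a log2 fold change of -0.08 without the inhibitor (95% interval -0.36 to 0.20) and of -0.15 with it (-0.40 to 0.10). The inhibitor gave Nr1h2 a log2 fold change of 0.20 without glutamate (-0.07 to 0.47) and 0.13 with it (-0.13 to 0.39). These and all later fold changes are differences of log2(normalized count + 1) from limma. On this scale the values of genes with few counts depend on the 1 added and on libraries at 0. P-values were adjusted by Benjamini-Hochberg over the 14266 genes tested. With the filter removed, the intervals of Nr1h3 reached from -2.84 to 1.59 for glutamate alone and from -3.53 to 0.79 for the inhibitor alone, so changes of several fold lie within them. Between wells Nr1h3 had coefficients of variation of 41.8% to 148%, where read counting alone would give 30.4% to 39.4%.

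Of 11 RXR partners and coregulators of the LXRs, 10 were tested and limma called none higher or lower in any of the comparisons. For the inhibitor over both glutamate levels, 4 had a positive and 6 a negative log2 fold change, with a median of -0.04 against 0.00 for all genes. Rxra and Rxrb, the obligate partners of the LXRs, were named after their values were seen. Rxra was at 178, 235 and 164 in Veh-Veh, 120, 140 and 203 in Veh-Glut, 279, 183 and 203 in TFBTBOA-Veh and 178, 196 and 201 in TFBTBOA-Glut, groups that overlapped. Rxrb was at 562, 572 and 610.5 in Veh-Veh, 724, 692 and 541 in Veh-Glut, 751, 569 and 532 in TFBTBOA-Veh and 614, 482 and 561 in TFBTBOA-Glut. It too overlapped between the groups. Enzymes that make or break down LXR ligands were sparse, with 5 of 10 passing the filter. Ch25h, which makes the LXR ligand 25-hydroxycholesterol and was likewise named after its values were seen, was at 0 in 11 of 12 libraries.

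Abca1, the member exporter with the higher level, had higher group means with the inhibitor than without it, a difference that did not pass the test. It lies at chr4:53030787-53159895 on the minus strand, and was at 340, 336 and 317 normalized counts in Veh-Veh (331 ± 12.6, SD, n = 3), 297, 367 and 377 in Veh-Glut (347 ± 43.9), 510.5, 296 and 499 in TFBTBOA-Veh (435 ± 120) and 381, 374 and 441 in TFBTBOA-Glut (398 ± 36.8). Replicate 2 of TFBTBOA-Veh lay below every Veh-Veh library while the other two lay above all libraries without the inhibitor. The coefficient of variation in TFBTBOA-Veh was 27.6%, where read counting alone would give 4.87%.

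The inhibitor gave Abca1 a log2 fold change of 0.35 without glutamate (-0.07 to 0.77, adjusted p = 0.533 from limma) and 0.20 with it (-0.13 to 0.54, adjusted p = 0.506). The value without glutamate was 0.61 without TFBTBOA-Veh replicate 2, 0.22 without replicate 1 and 0.23 without replicate 3. Over both glutamate levels, fitted on all 12 libraries, it was 0.28 (0.01 to 0.55, unadjusted p = 0.0442, adjusted p = 0.223 from limma). Without TFBTBOA-Veh replicate 2 the value was 0.38 and the adjusted p 0.0510, still short of the threshold of 0.05. Glutamate gave 0.06 without the inhibitor (-0.26 to 0.38) and -0.09 with it (-0.52 to 0.35).

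LXRs bind pairs of AGGTCA half-sites 4 bases apart (DR4), and such an element near the start of Abca1 is a well-described LXR site. The 300 bases around each RefSeq gene start (250 before to 50 after, GRCm38.p6) were searched on both strands for AGGTCA, any 4 bases and AGGTCA. The best match near the start of Abca1 is shown together with that of Arl4c, the LXR target described further on. Capitals mark the 16 bases matched, read on the strand of the gene, on which the motif runs in reverse.
Abca1, chr4:53159940-53159969, minus strand: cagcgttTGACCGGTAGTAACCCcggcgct
Arl4c, chr1:88702244-88702273, minus strand: accgagaAGACCCCGCCTGACCCcgggaga
Each differs from the motif at 3 of its 12 fixed letters, and lies 67 to 52 bases before the start of Abca1 and 75 to 60 bases before that of Arl4c. The best matches in the windows of Nr1h2, Nr1h3, Npc2 and Apoe differed at 4 letters. Of 32851 windows, 21.9% held a match with at most 3 differing letters and 0.0152% an exact one, so a match of this kind is common. No match is given for Abcg1 and Npc1.

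Abcg1 (chr17:31057675-31117988, plus strand) was scarcely detected and had the highest fold change of the members under the inhibitor, which did not pass the test. It was at 4.35, 0 and 14.7 normalized counts in Veh-Veh (6.36 ± 7.57, SD, n = 3), 5.89, 0 and 6.49 in Veh-Glut (4.13 ± 3.59), 27.3, 10.98 and 13.1 in TFBTBOA-Veh (17.1 ± 8.90) and 5.72, 26.4 and 18.2 in TFBTBOA-Glut (16.8 ± 10.4). In the 10 libraries with recovered reads these are 0 to 25 reads. Both libraries at 0 were without the inhibitor, where a 0 allows up to 3.18 normalized counts in Veh-Veh and 3.16 in Veh-Glut. The groups nonetheless overlapped in each pair compared.

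The inhibitor gave Abcg1 a log2 fold change of 1.94 without glutamate (-0.13 to 4.01, adjusted p = 0.475 from limma) and 2.03 with it (-0.02 to 4.09, adjusted p = 0.277). Over both glutamate levels the value was 1.99 (0.52 to 3.46), a 3.97-fold difference on the log2(normalized count + 1) scale. Its interval was 1.43-fold to 10.995-fold (unadjusted p = 0.0112, adjusted p = 0.102 from limma). The mean of Abcg1 was under 10 in both groups without the inhibitor and above it in both groups with it, so the filter let it in through the difference that is tested, and its values are no more than a description. They moved by over 1.5 times with the settings, to 0.88 without glutamate when Veh-Veh replicate 2 (at 0) was left out, to 1.09 with glutamate when Veh-Glut replicate 2 (at 0) was left out, and to 1.16 over both levels with a pseudocount of 5. The values for glutamate, -0.24 and -0.14, were small beside their intervals of -3.03 to 2.56 and -1.52 to 1.23.

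Apoe had lower means with glutamate whether or not the inhibitor was there, a difference that did not pass the test. It lies at chr7:19696109-19699188, minus strand, and was at 654, 544 and 519 normalized counts in Veh-Veh (572 ± 71.8, SD, n = 3), 570, 447 and 435 in Veh-Glut (484 ± 74.6), 548, 608 and 654 in TFBTBOA-Veh (603 ± 53.2) and 502, 509 and 496 in TFBTBOA-Glut (502 ± 6.94). Without the inhibitor the groups overlapped, with replicate 1 the highest in each. With it, all TFBTBOA-Glut libraries lay below all TFBTBOA-Veh libraries, where 8.96% of all genes did not overlap either way.

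The log2 fold change of Apoe for glutamate was -0.25 without the inhibitor (-0.56 to 0.07, adjusted p = 0.622 from limma) and -0.26 with it (-0.53 to 0.01, unadjusted p = 0.0558, adjusted p = 1.00). The difference between these values was -0.01 (-0.41 to 0.38) by the interaction term. A glutamate term over both inhibitor levels, added after these values were seen, gave -0.25 (-0.44 to -0.06, unadjusted p = 0.0129, adjusted p = 0.761 from limma), where 5.9% of all genes tested had an unadjusted p under 0.05. The inhibitor gave Apoe 0.08 without glutamate and 0.07 with it. For an effect over both glutamate levels the interval was -0.12 to 0.26.

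Npc2, the lumenal sterol carrier of the lysosome, had coefficients of variation of 2.15% to 6.94% within groups and was lowest in Veh-Veh. It lies at chr12:84754562-84773152, minus strand, and was at 2063, 2147 and 2067 normalized counts in Veh-Veh (2092 ± 47.6, SD, n = 3), 2262, 2427 and 2197 in Veh-Glut (2295 ± 118), 2537, 2620 and 2289 in TFBTBOA-Veh (2482 ± 172) and 2325, 2391 and 2292 in TFBTBOA-Glut (2336 ± 50.3). All libraries of Veh-Glut and of TFBTBOA-Veh lay above all of Veh-Veh, where 14.4% and 16.8% of all genes did not overlap either way. Those of TFBTBOA-Glut did too, a pair for which no share of all genes was taken.

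For the inhibitor without glutamate the log2 fold change of Npc2 was 0.24 (0.07 to 0.42, unadjusted p = 0.00902, adjusted p = 0.224 from limma), a 1.18-fold difference. With glutamate it was 0.03 (-0.16 to 0.21). Glutamate gave 0.13 without the inhibitor (-0.04 to 0.30) and -0.09 with it (-0.27 to 0.10), and the difference between the glutamate effects was -0.22 (-0.44 to 0.01, unadjusted p = 0.0551, adjusted p = 0.710 from limma's interaction term). Over both glutamate levels the inhibitor gave 0.14 (0.01 to 0.26, adjusted p = 0.192).

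Npc1, the membrane partner of Npc2, on chromosome 18, had its lowest group mean in Veh-Glut. It was at 1177, 1100 and 983 normalized counts in Veh-Veh (1087 ± 97.6, SD, n = 3), 970, 936 and 1014 in Veh-Glut (973 ± 38.9), 968, 1052 and 1063 in TFBTBOA-Veh (1028 ± 51.7) and 1038, 1295 and 1028 in TFBTBOA-Glut (1120 ± 152). TFBTBOA-Glut lay above Veh-Glut without overlap, with its replicate 2 far above its other libraries. Between these groups 23.2% of all genes did not overlap either way. The log2 fold change for the inhibitor was -0.08 without glutamate (-0.30 to 0.14) and 0.19 with it (-0.06 to 0.45, adjusted p = 0.402 from limma). Glutamate gave -0.16 without the inhibitor (-0.38 to 0.07) and 0.12 with it (-0.14 to 0.37). Exons of Npc1 share 511 bases, 4.52% of their length, with Rmc1 on the opposite strand, and the library kit does not mark strand, so reads of that stretch cannot be assigned to either gene.

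**Figure D2:**
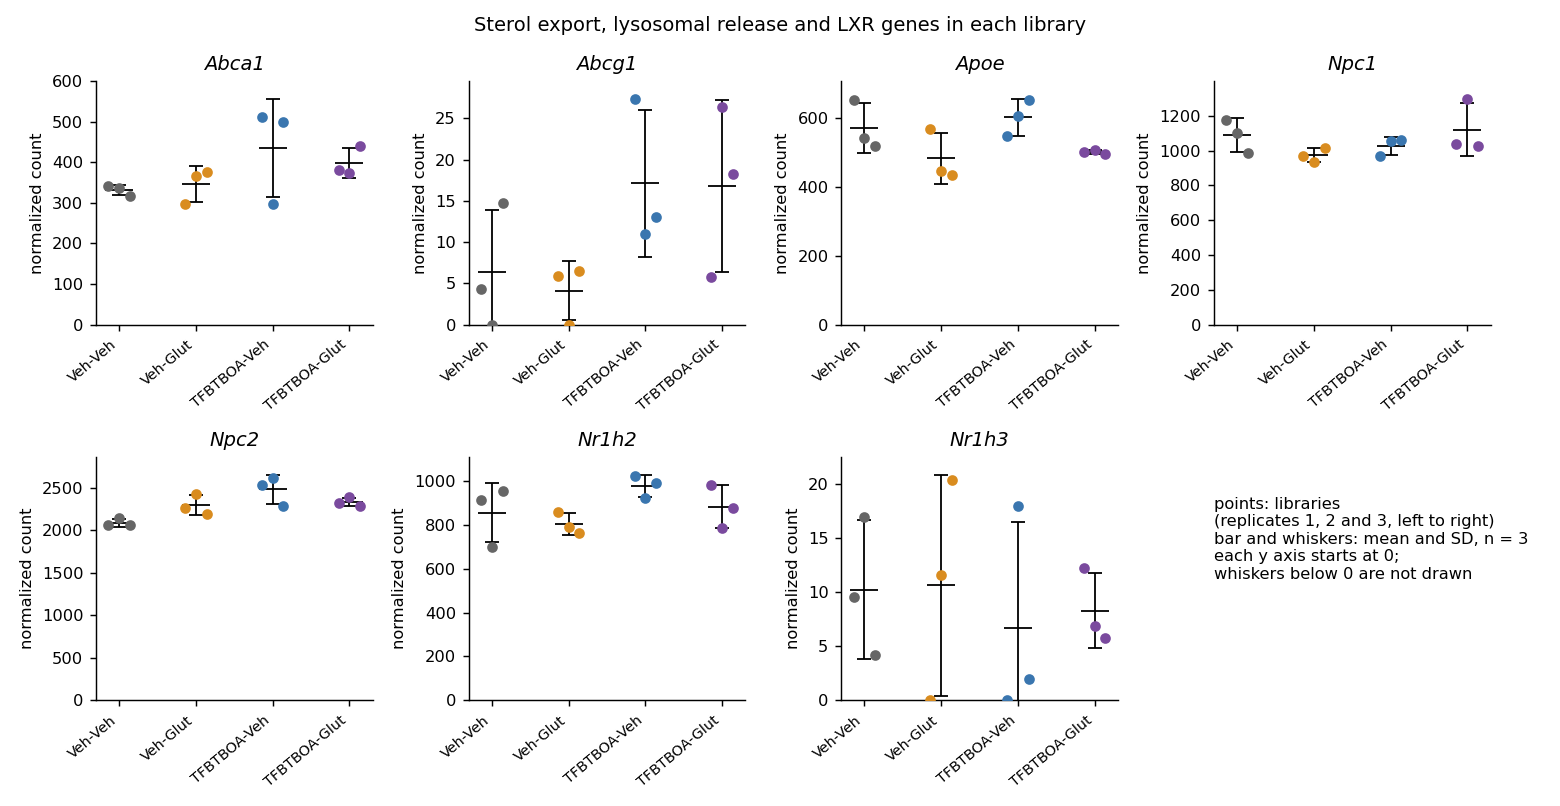
Normalized counts of the 7 members in each of the 12 libraries, with replicates 1, 2 and 3 from left to right in each group, and the mean and SD of each group (n = 3). Npc2 is lowest in the 3 Veh-Veh libraries, Abca1 in TFBTBOA-Veh has 1 low library at 296, and Abcg1 and Nr1h3 are at 0 in some libraries.

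Set beside all genes, the 6 tested members yielded no call. For glutamate without the inhibitor limma called 0 of 6 members, against 0.161% of all genes, and 0 of 6 had an unadjusted p under 0.05, against 9.51%. edgeR and DESeq2 on the recovered reads also called 0. The only member whose groups did not overlap was Npc2, where 14.4% of all genes did not. The median log2 fold change of the members was -0.12, with 2 positive and 4 negative, against 0.00 for all genes. For glutamate with the inhibitor limma called 0 of 6 against 0.0% of all genes, again with 0 at an unadjusted p under 0.05, against 3.76%. Apoe was the member without overlap, against 8.96% of all genes, and the median was -0.12.

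For the inhibitor without glutamate limma called 0 of 6 members against 1.03% of all genes, and 1, Npc2, had an unadjusted p under 0.05 against 11.4%. Npc2 was also the member without overlap, against 16.8%. The median log2 fold change was 0.22, with 5 positive and 1 negative. Without Abcg1 the median was 0.20, the value of Nr1h2. For the inhibitor with glutamate the count was 0 of 6 against 2.18%, with 0 at an unadjusted p under 0.05, against 18.3%, and 0 called by edgeR and DESeq2. Npc1 did not overlap, against 23.2% of all genes. All 6 log2 fold changes were positive with a median of 0.16, and those of Npc2 and Apoe turned to -0.0045 and -0.0063 without Veh-Glut replicate 3. Abcg1 was among the 6 only through its level with the inhibitor, and the median without it was 0.13, the value of Nr1h2.

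Over both glutamate levels the inhibitor again gave 6 positive values of 6 and a median of 0.15, where 50.9% of all genes were positive. Since Abcg1 was among the 6 only through its level with the inhibitor, nothing is read from these counts, and the median without it was 0.14. limma called 0 of 6 against 6.87% of all genes. The unadjusted p was under 0.05 for 3 members, Abcg1, Npc2 and Abca1, against 20.8% of all genes, and no member separated the libraries with and without the inhibitor, as 4.28% of all genes did. Without TFBTBOA-Glut replicate 2 the value of Npc1 turned to -0.0047. For the interaction limma called 0 of 6 against 0.014%, with 0 at an unadjusted p under 0.05, against 6.95%. For the added glutamate term the count was 0 of 6 against 0.0%, with 1, Apoe, at an unadjusted p under 0.05 and no member without overlap, against 0.238%.

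**Figure D3:**
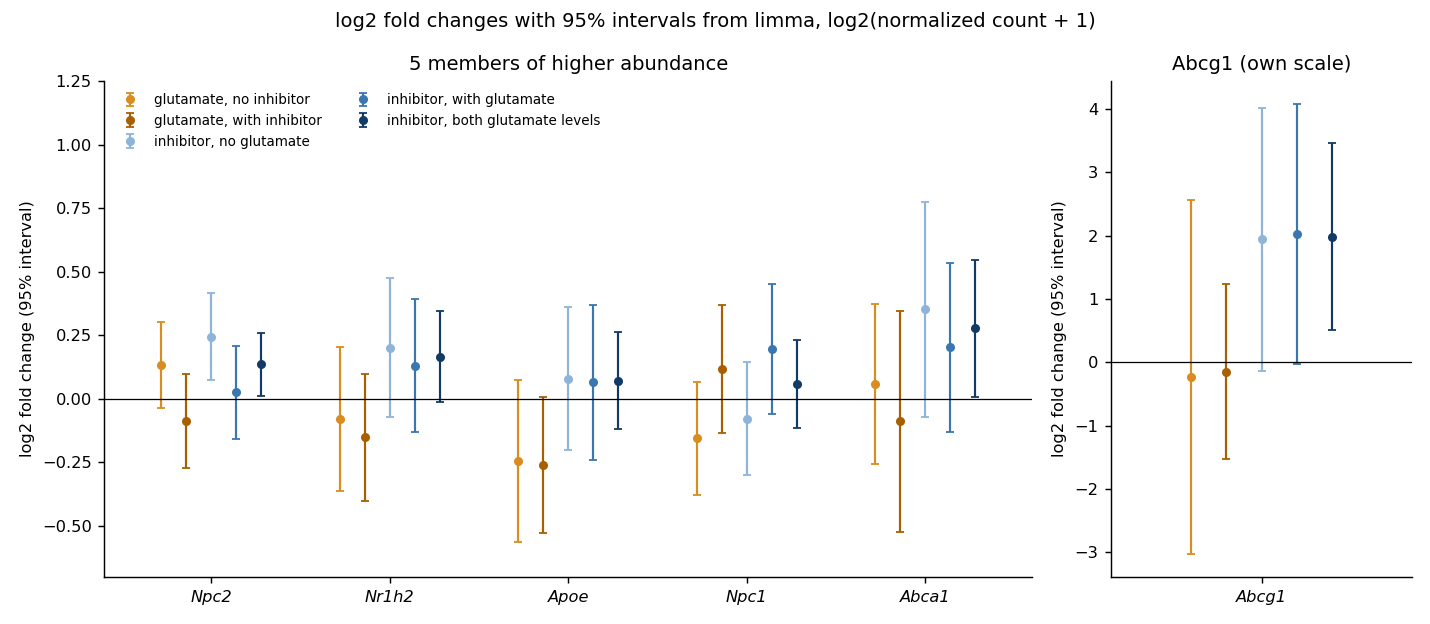
log2 fold changes of the 6 tested members with 95% intervals from limma, for glutamate (orange) without and with the inhibitor and for the inhibitor (blue) without glutamate, with glutamate and over both levels. Abcg1 has its own axis. Intervals clear of 0 are those of Npc2 for the inhibitor without glutamate (0.07 to 0.42) and of Npc2, Abca1 and Abcg1 over both levels, and none had an adjusted p under 0.05.

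Among other genes that LXRs are known to switch on, 11 of 16 were tested and 1, Arl4c, was called higher with the inhibitor by limma. Arl4c, a small GTPase of the ARF family, was at 320, 317 and 377 normalized counts in Veh-Veh, 401, 283 and 306 in Veh-Glut, 612, 565 and 497 in TFBTBOA-Veh and 630.5, 855 and 541 in TFBTBOA-Glut. Every library with the inhibitor lay above every library without it, where 4.28% of all genes separated these libraries either way. Of all genes 0.925% were called higher for the inhibitor without glutamate, 1.23% with it and 3.89% over both levels. The log2 fold change was 0.72 without glutamate (0.42 to 1.02, adjusted p = 0.0299 from limma), 1.02 with it (0.61 to 1.44, adjusted p = 0.0191) and 0.87 over both levels (0.61 to 1.14, adjusted p = 0.000481). Glutamate gave Arl4c -0.05 without and 0.25 with the inhibitor. The call over both levels held whichever library was left out. That without glutamate was lost without Veh-Veh replicate 1 or 2 or TFBTBOA-Veh replicate 1 or 2 (adjusted p of 0.0884 to 0.153 from limma), and that with glutamate without Veh-Glut replicate 2 or 3 or TFBTBOA-Glut replicate 1 or 2 (0.0660 to 0.0937).

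None of the other 10 LXR targets was called by limma. Over both glutamate levels 6 of the 10 had a positive and 4 a negative log2 fold change under the inhibitor, with a median of 0.10 against 0.00 for all genes, and their difference from Arl4c was not tested. For glutamate without the inhibitor 7 of the 10 were positive, with a median of 0.14. Srebf1, Pltp, Lpcat3 and Mylip, LXR targets in lipid synthesis, phospholipid transfer, phospholipid remodelling and ubiquitin ligation, were named after their values were seen. Srebf1 was at 4867 to 5614 normalized counts in Veh-Veh, 4773 to 5151 in Veh-Glut, 5414 to 6056 in TFBTBOA-Veh and 5076 to 5766 in TFBTBOA-Glut, with a log2 fold change of 0.14 for the inhibitor over both levels (0.03 to 0.24, adjusted p = 0.130 from limma). Pltp was at 87.0 to 110 in Veh-Veh, 80.1 to 141 in Veh-Glut, 116 to 162 in TFBTBOA-Veh and 109 to 127 in TFBTBOA-Glut, with a log2 fold change of 0.42 (0.07 to 0.77, adjusted p = 0.153). Lpcat3 had 0.13 (adjusted p = 0.221). Mylip, at 5.47 to 56.2 normalized counts over the libraries, had -1.13 (-2.14 to -0.12, adjusted p = 0.181).

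The 14 other exporters, lipoproteins and remodelling enzymes gave 10 genes tested, of which 1 was higher with the inhibitor over both levels and none lower, where 3.89% of all genes were called higher. Clu, the secreted chaperone apolipoprotein J, was at 1185, 1208 and 1049 normalized counts in Veh-Veh, 1086, 828 and 898 in Veh-Glut, 1935, 1429 and 1380 in TFBTBOA-Veh and 1437, 1487 and 1214 in TFBTBOA-Glut. The 6 libraries with the inhibitor lay above the 6 without it, where 4.28% of all genes separated these libraries either way. Its log2 fold change was 0.45 without glutamate (adjusted p = 0.155 from limma), 0.56 with it (adjusted p = 0.0469) and 0.50 over both levels (0.30 to 0.70, adjusted p = 0.00409). The call with glutamate was lost without Veh-Glut replicate 2 or 3 or TFBTBOA-Glut replicate 1 or 2 (adjusted p of 0.143 to 0.188) while the call over both levels held whichever library was left out. The list had a median of 0.09 over both levels, with 7 positive.

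Genes of lysosomal lipid breakdown and sterol transfer, the setting in which Npc1 and Npc2 work, were all measured, and 1 of 22 was called over both levels, close to the 3.89% of all genes called higher. Osbpl5, a lipid transfer protein of the oxysterol-binding family that has been tied to export of cholesterol from late endosomes, was at 751, 745.5 and 695 normalized counts in Veh-Veh, 622, 588 and 572 in Veh-Glut, 949.9, 984 and 902 in TFBTBOA-Veh and 887, 699 and 943 in TFBTBOA-Glut. Without glutamate the groups stood apart, as 16.8% of all genes did. They also stood apart with it, as 23.2% of all genes did, although TFBTBOA-Glut replicate 2 fell among the Veh-Veh libraries. Over both levels the log2 fold change of Osbpl5 was 0.43 (0.26 to 0.60, adjusted p = 0.00355 from limma). For the inhibitor over both levels 19 of the 22 genes had a positive and 3 a negative value, where 50.9% of all genes were positive. The median was 0.11 against 0.00 for all genes, and the list as a whole was not tested. For glutamate without the inhibitor 12 were positive and the median was 0.04.

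Of the 5 enzymes of oxysterol metabolism tested, 1 was called higher with the inhibitor over both levels, where 3.89% of all genes were. That was Ephx1, an epoxide hydrolase. It was at 8332, 8447 and 7883 in Veh-Veh, 7748, 7191 and 7469.1 in Veh-Glut, 9498, 9233 and 8820 in TFBTBOA-Veh and 9149, 8886 and 8999 in TFBTBOA-Glut. All libraries with the inhibitor lay above all without it, where 4.28% of all genes separated these libraries either way. The log2 fold change was 0.22 over both levels (0.13 to 0.30, adjusted p = 0.00462 from limma). None of the 7 tested genes of sterol ester storage and none of the 9 receptors and adaptors for lipoproteins was called by limma in any comparison.

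Enzymes of cholesterol synthesis, taken for comparison, showed a different pattern. For glutamate without the inhibitor 7 of 19 were called higher and none lower, against 0.133% of all genes called higher, with a median log2 fold change of 0.42, where the export and LXR genes had -0.12. Leaving out replicate 1 of Veh-Veh, or replicate 2 or 3 of Veh-Glut, took the count to 0. It was 3 and 4 without the other two Veh-Veh libraries, 11 without the remaining Veh-Glut library, 3 with the replicate number as a block and 16 by DESeq2 on the recovered reads. For the inhibitor with glutamate 10 of 19 were called lower and none higher, against 0.953% of all genes called lower. Their median was -0.38, where the export and LXR genes had 0.16, or 0.13 without Abcg1. The count of enzymes called lower was 1 when either of the same Veh-Glut libraries or TFBTBOA-Glut replicate 1 was left out, and 7 to 10 without any of the other libraries. For the inhibitor over both glutamate levels 2 of 19 were called lower and none higher, where 425 of 14266 genes were called lower. The lists differ in size and level, and the difference between them was not tested. All of these comparisons use the Veh-Glut libraries.

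**Figure D4:**
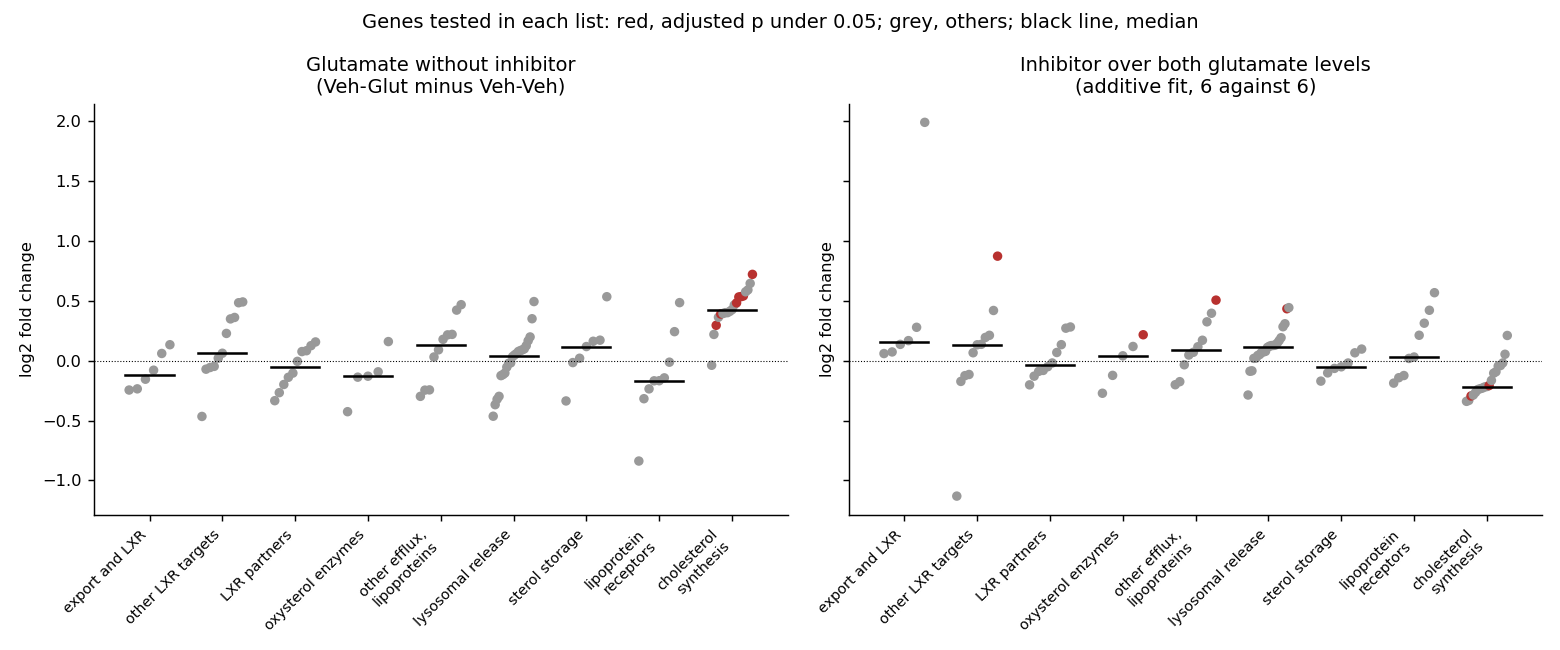
log2 fold changes of every tested gene in the members and 8 related lists, for glutamate without the inhibitor (left) and the inhibitor over both glutamate levels (right). Red points had an adjusted p under 0.05 from limma, grey points did not, and black lines are medians. On the left the only red points are 7 enzymes of cholesterol synthesis. On the right the members hold no red point, while Arl4c, Clu, Osbpl5 and Ephx1 are red above 0 and 2 enzymes of cholesterol synthesis are red below 0.

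**Figure D5:**
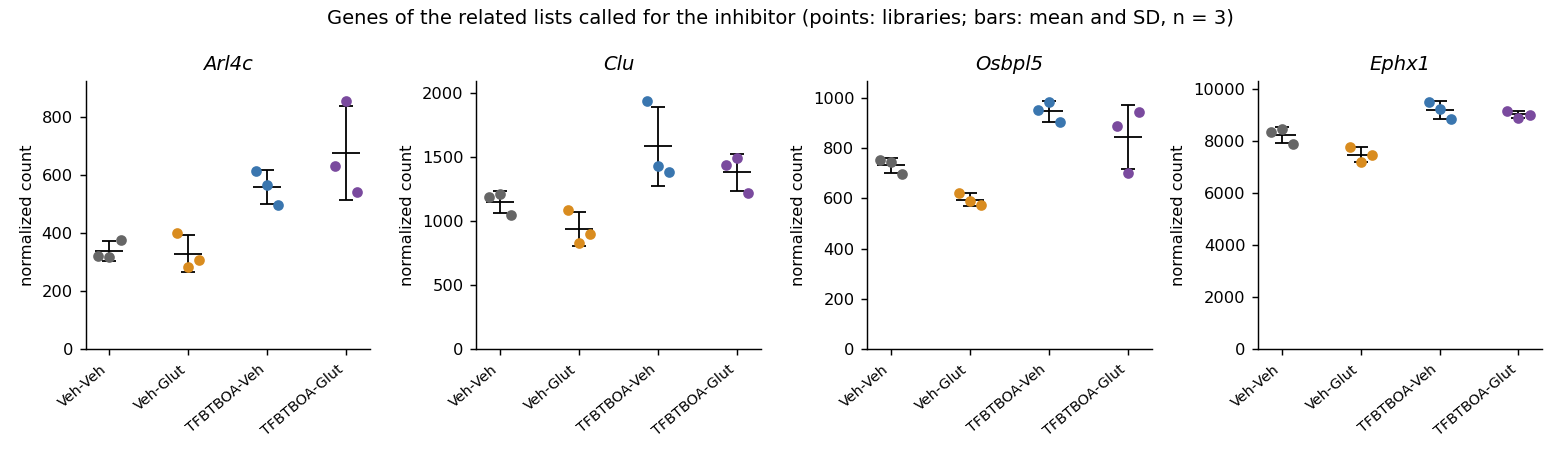
Normalized counts of Arl4c, Clu, Osbpl5 and Ephx1 in each library, with the mean and SD of each group (n = 3). For Arl4c, Clu and Ephx1 the 6 libraries with TFB-TBOA lie above the 6 without it, and for Osbpl5 TFBTBOA-Glut replicate 2 (699) lies within the Veh-Veh range of 695 to 751.

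A few markers of other cells differed with the inhibitor too. The 7 markers of neurons and neuroblasts summed to 403 to 626 normalized counts in Veh-Veh, 465 to 545 in Veh-Glut, 638 to 756 in TFBTBOA-Veh and 579 to 709 in TFBTBOA-Glut. Most of that sum was Prox1, with group means of 372, 308, 476 and 432 in the same order. Of the 7 markers, 5 were tested and 1, Prox1, was higher over both glutamate levels (log2 fold change 0.43, adjusted p = 0.0395 from limma), where 3.89% of all genes were called higher. That call was lost without Veh-Veh replicate 1 or 2, Veh-Glut replicate 2 or 3, TFBTBOA-Veh replicate 1 or 3, or TFBTBOA-Glut replicate 1 or 2 (adjusted p of 0.0512 to 0.0977). Of the 2 not tested, Neurod1 had group means of 15.4, 12.1, 2.07 and 4.73, and Dcx of 5.66, 6.48, 3.99 and 4.48. Both had lower means with the inhibitor, but these rest on few reads. Dcx was at 0 in 7 of the 12 libraries and Neurod1 in 1. Of 6 tested astrocyte markers 1, S100b, was lower over both levels (log2 fold change -0.88, adjusted p = 0.00312 from limma), whichever library was left out. Among all 14266 genes tested, 425 were called lower. Oligodendrocyte lineage markers summed to 4481 to 6530 and endothelial and pericyte markers to 20.1 to 86.6 over the 12 libraries. The part of these cells in the values of Arl4c, Clu, Osbpl5, Ephx1 and the members was not tested.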

How the data were processed

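The deposited table holds one signal per gene and library. The authors made it by trimming reads (AdapterRemoval), removing ribosomal, mitochondrial and PhiX reads, aligning with HISAT2, counting reads per GENCODE M14 gene with featureCounts and dividing by DESeq size factors. GRCh38, Subread, featureCounts, HISAT2 2.0.6 and CASAVA 1.8.2 are listed in the submitters' processing notes, whereas the methods give GRCm38p4 as the build. Counting is described as stranded, although the SMART-Seq HT kit does not mark strand.

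Here log2(normalized count + 1) was fitted with limma 3.58.1 (R 4.3.3, trended variance, two-sided) for 14266 genes with a mean of at least 10. Each pairwise comparison used its own 6 libraries. The interaction and additive terms used 12. P-values were adjusted by Benjamini-Hochberg over all genes tested, with a threshold of 0.05. Intervals are 95%. A 0 allows up to 3 reads, which covers counting error only. Whole reads, recovered in 10 libraries to within 0.05 of a whole number, were tested with edgeR 4.0.16 and DESeq2 1.42.0 as alternatives. For TFBTBOA-Veh replicates 2 and 3 recovered reads were not used, so count tests were limited to the 2 comparisons without that group. Scripts were tested on simulated data.

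Gene positions and exon lengths come from GENCODE M21 (GRCm38) by symbol, and sequences from RefSeq (GRCm38.p6). Matches near the gene start are given for 5 of the 7 members. The 183 entries that share a symbol were left out of lists. The members and gene lists were chosen with earlier results of these data known. Of each list, at most 4 genes past the threshold, or the 2 of smallest p, were to be named, and exceptions are stated. One listed gene enters the counts but is not named here. For likeness between genes, the 3 of highest Pearson's r with a mean of at least 100 were taken. Alternatives were pseudocounts of 0.5 and 5, no filter, a minimum mean of 50, TMM scaling, the replicate number as a block, 1 fit of all 12 libraries and leaving out each library.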

Additional observations from a re-analysis of the deposited data

How the results depend on the processing

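No member was called under any alternative in any comparison. The nearest were Abca1 for the inhibitor over both glutamate levels without TFBTBOA-Veh replicate 2 (adjusted p = 0.0510 from limma) and Npc2 for the inhibitor without glutamate with the replicate block (0.0827). Deviations of same-numbered wells had an r of -0.04 to 0.08, and those of other-numbered wells an r of -0.11 to 0.08. Between same-numbered wells r was positive in every pair of groups for replicates 1 and 3, and of both signs for replicate 2. Whether the numbers pair the wells is thus not settled. The main fits treat the wells as unpaired, and the block is given as an alternative. With the block, the genes called numbered 4 in place of 23 for glutamate without the inhibitor and 325 in place of 147 for the inhibitor without glutamate. They numbered 459 in place of 311 for the inhibitor with glutamate and 14 in place of 2 for the interaction. For glutamate without the inhibitor they numbered 39 at a minimum mean of 50, 36 with all 12 libraries in 1 fit and 161 with DESeq2. For the inhibitor with glutamate they numbered 727 with all 12 libraries and 860 with DESeq2, in place of 311, and for the interaction 0 with no filter. The calls of Arl4c without glutamate in the fit of all 12 libraries (adjusted p = 0.0622) and of Clu with glutamate under no filter (0.0557) were lost. With the longest transcript as length, levels per kb were 440 for Nr1h2, 183 for Npc1, 698 for Npc2 and 384 for Apoe. The cause of these shifts was not tested.

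With each library left out in turn, genes called ranged from 0 to 139 for glutamate without the inhibitor, 31 to 86 for the inhibitor without glutamate, 62 to 441 for the inhibitor with glutamate, 0 to 2 for the interaction and 707 to 984 over both levels. Signs turned for uncalled values. For glutamate without the inhibitor the ranges were -0.0048 to 0.17 for Abca1, -1.30 to 0.71 for Abcg1 and -0.22 to 0.0044 for Nr1h2. With the inhibitor they were -0.34 to 0.047 for Abca1 and -0.57 to 0.45 for Abcg1. For the inhibitor with glutamate they were -0.0045 to 0.067 for Npc2 and -0.0063 to 0.19 for Apoe, and without glutamate -0.078 to 0.17 for Rxrb. For the interaction they were -0.86 to 1.16 for Abcg1, -0.16 to 0.066 for Nr1h2 and -0.11 to 0.11 for Apoe, and for the inhibitor over both levels -0.0047 to 0.10 for Npc1. For the added glutamate term they were -0.12 to 0.054 for Abca1, -0.66 to 0.24 for Abcg1, -0.083 to 0.022 for Npc1 and -0.0068 to 0.053 for Npc2. Abcg1 and Nr1h3 rest on few reads per library, and Abcg1 varied between wells by more (51.9% to 119%) than counting alone would give (24.1% to 48.9%). Count tests were not run for comparisons that use TFBTBOA-Veh.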

Other observations

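The genes whose levels ran most like those of the members over the 12 libraries were in none of the lists described. These are descriptions across libraries that share treatment and scaling, taken as the highest of 10324 genes compared (10325 for Abcg1), so high values follow from the choice. For Abca1 they were Slc41a2, a magnesium carrier (Pearson's r = 0.905), Rps6ka2, a ribosomal S6 kinase (0.891), and Dchs1, a large protocadherin (0.880). For Apoe they were Nptx2, a neuronal pentraxin (0.865), BC004004 (0.863) and Cryzl1 (0.851). For Npc2 they were Gm12226 (0.913), Selenos, a selenoprotein of the endoplasmic reticulum (0.846), and Samd14 (0.846). For Npc1 they were Chmp4b, an ESCRT subunit (0.864), Pcdh19, a protocadherin (0.863), and Kmt2b, a histone methyltransferase (0.846). For Nr1h2 they were Dtx1, a regulator of Notch signalling (0.900), Sept5 (0.869) and Uaca (0.868). For Abcg1, at few reads, they were Ubash3b, a phosphatase (0.895), Klc4, a kinesin light chain (0.888), and Rora, a nuclear receptor (0.879).

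Between members, the highest r was 0.594 for Nr1h2 and Abcg1, followed by 0.470 for Nr1h2 and Apoe. The first of these rests on the few reads of Abcg1, which had a mean of 11.1 normalized counts and was at 0 in 2 libraries. Npc1 and Npc2 had an r of -0.153, and Abca1 and Apoe of -0.0253.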
